A study of Mus musculus with 24 samples.

Results

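The 10 genes followed here were listed as targets of the transcription factor p53 that act in DNA repair, nucleotide supply and metabolism rather than in cell death. Whether p53 controls each of them in these mouse tissues was not tested. They were measured through mouse embryos and yolk sacs carrying mutant Setd2: Sesn1, Sesn2, Ddit4l, Ddb2, Xpc, Polk, Rrm2b, Tigar, Gadd45a and Foxo3. They were taken as the rows with those symbols in each deposited table, and all 10 were found among the 55421 genes listed in each. Setd2 encodes a histone methyltransferase, the enzyme behind H3K36 trimethylation in transcribed genes. RNA was sequenced from whole embryos and from yolk sacs of C57BL/6 mice at embryonic day 9.5, in 24 libraries. A Setd2-null line and a Setd2 catalytic dead (CD) line each gave wild type (WT), heterozygous (HE) and homozygous (HO) samples of each tissue, with 2 libraries per group. The names imply no protein from the null allele and an inactive enzyme from the CD allele, which these data do not measure. The labels do not state which part of the gene the null allele lacks, nor that replicates came from separate litters, so p-values here reflect only how much these samples vary, which may be technical. No other allele or treatment is given in the labels.

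p53 is held at a low level by the ubiquitin ligase Mdm2 and accumulates when DNA is damaged or other stress signals arise. Beside the genes that stop the cell cycle or kill the cell, it induces genes that let a cell repair DNA and adjust its metabolism. Several of these answer to other factors as well: Sesn2, for example, is also induced by ATF4, the transcription factor of the integrated stress response.

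All values start from deposited read counts, which summed to 23414255 to 27674831 in embryo libraries and 16400137 to 22113787 in those of yolk sac. Levels within a gene are CPM, its count as a share of the library total after TMM scaling, which corrects for composition. Changes are given on the log2 scale beside a standard error (SE). Tests used edgeR's quasi-likelihood method, adjusted by Benjamini and Hochberg's procedure over every gene in the fit, and a gene is said to rise, fall or pass where the adjusted p was below 0.05. All 10 genes passed the filter on low counts in both tissues. In the yolk sac Ddit4l passed it only through the homozygous libraries, where it is high, so its direction there was fixed by the filter and its values are a description.

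Several libraries have to be known before the results. Setd2 stood at 231 ± 2.12 CPM in null WT embryos, 163 ± 8.26 in HE and 98.6 ± 7.62 in HO (mean ± SD, n = 2), in the order of the labels. The null yolk sac libraries labelled WT went against theirs: they held 102 and 114 CPM, next to 114 and 120 in HE, 75.5 and 78.9 in HO, and 178 and 190 in the CD WT yolk sacs. They are called "labelled WT" below. Xist and Y-linked transcripts put CD WT and CD HO libraries in opposite sexes in both tissues. In embryos CD WT was of the Y-linked type and CD HO of the Xist type, and in yolk sacs the reverse. Null embryo WT libraries were both of the Xist type, HO libraries were 1 of each, and HE libraries were both of the Y-linked type. Sex and genotype therefore cannot be told apart between null WT and HE embryos. Yolk sac CD HE replicate 2 held both Xist (888 CPM) and Y-linked transcripts (192 CPM summed). Markers of the embryo proper (such as Sox2, Pax6 and Myl7) summed to 368 to 506 CPM in embryo libraries and 2.01 to 5.9 in yolk sac libraries, while visceral endoderm markers (such as Afp, Ttr and Apob) summed to 26500 to 44900 CPM in yolk sacs and 10.8 to 751 in embryos.

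Positions are in the mm10 build. Sesn1 (ENSMUSG00000038332, chr10:41809935-41908424, plus strand) and Foxo3 (ENSMUSG00000048756, chr10:42181841-42276755, minus strand) are 273416 bases apart. Sesn2 (ENSMUSG00000028893) spans chr4:132492032-132510501, Ddit4l (ENSMUSG00000046818) chr3:137621612-137628333, Ddb2 (ENSMUSG00000002109) chr2:91211572-91236982 and Polk (ENSMUSG00000021668) chr13:96480690-96542579. Rrm2b (ENSMUSG00000022292) spans chr15:37923952-37961318. Chromosome 6 carries Gadd45a (ENSMUSG00000036390, chr6:67035096-67037457), Xpc (ENSMUSG00000030094, chr6:91489305-91515888) and Tigar (ENSMUSG00000038028, chr6:127085116-127109557). No source used here says whether counting was strand-specific, and 4 of the genes share exon bases with a gene on the opposite strand that could have been counted with them. Ddb2 shares 652 of 2736 exon bases with Acp2, which averaged 972.3 counts per embryo library. Gadd45a shares 337 of 1764 with E230016M11Rik (72.1 counts), Rrm2b 734 of 9134 with Gm49085 (13.2 counts) and Tigar 122 of 3658 with Platr31 (3.6 counts).

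Promoter windows were available for 7 of the 10 genes, as 9 windows of 250 bases before to 50 after a transcript start (RefSeq, GRCm38.p6). Of these, 6 are printed 5′ to 3′ on the gene's strand, since the results turn on these genes: Sesn2 against its paralog Sesn1, Ddit4l, Gadd45a and Foxo3, which rose in embryos (as did Polk, not printed), and Tigar, which fell in yolk sacs. Capitals mark every match, on either strand, to the motifs searched: the 10-base p53 half-site, TGATGNAA (an ATF4 composite element), CCAAT and TATAAA. No matches overlapped.
Sesn2: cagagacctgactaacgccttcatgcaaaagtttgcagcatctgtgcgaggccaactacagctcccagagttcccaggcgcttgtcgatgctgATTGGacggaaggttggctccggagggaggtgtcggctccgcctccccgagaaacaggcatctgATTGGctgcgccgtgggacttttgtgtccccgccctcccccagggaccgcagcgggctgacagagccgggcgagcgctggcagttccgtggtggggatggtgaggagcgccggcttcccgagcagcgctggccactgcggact
Sesn1, second window: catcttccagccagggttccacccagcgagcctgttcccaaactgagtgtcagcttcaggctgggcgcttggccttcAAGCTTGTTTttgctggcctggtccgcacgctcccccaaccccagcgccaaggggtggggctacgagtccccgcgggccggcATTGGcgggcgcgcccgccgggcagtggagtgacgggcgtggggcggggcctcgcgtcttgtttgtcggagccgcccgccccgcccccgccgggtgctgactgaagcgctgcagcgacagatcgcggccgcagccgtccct
Ddit4l: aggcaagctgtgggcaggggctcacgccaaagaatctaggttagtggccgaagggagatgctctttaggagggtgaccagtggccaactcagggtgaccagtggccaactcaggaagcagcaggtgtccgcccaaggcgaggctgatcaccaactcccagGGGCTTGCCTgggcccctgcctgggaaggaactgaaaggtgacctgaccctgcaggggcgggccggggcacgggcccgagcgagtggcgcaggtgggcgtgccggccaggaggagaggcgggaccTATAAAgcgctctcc
Gadd45a: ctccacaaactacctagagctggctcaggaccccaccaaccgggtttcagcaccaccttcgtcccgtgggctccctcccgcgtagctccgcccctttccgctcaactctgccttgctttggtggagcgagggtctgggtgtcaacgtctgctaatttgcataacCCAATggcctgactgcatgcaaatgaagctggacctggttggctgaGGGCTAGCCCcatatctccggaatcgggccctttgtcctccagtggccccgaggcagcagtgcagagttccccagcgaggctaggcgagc
Foxo3: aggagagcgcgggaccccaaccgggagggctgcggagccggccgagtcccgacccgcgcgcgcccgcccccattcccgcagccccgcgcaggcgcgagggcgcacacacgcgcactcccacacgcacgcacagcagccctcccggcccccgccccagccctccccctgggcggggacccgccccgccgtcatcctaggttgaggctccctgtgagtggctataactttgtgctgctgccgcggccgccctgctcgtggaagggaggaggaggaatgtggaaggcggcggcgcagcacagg
Tigar: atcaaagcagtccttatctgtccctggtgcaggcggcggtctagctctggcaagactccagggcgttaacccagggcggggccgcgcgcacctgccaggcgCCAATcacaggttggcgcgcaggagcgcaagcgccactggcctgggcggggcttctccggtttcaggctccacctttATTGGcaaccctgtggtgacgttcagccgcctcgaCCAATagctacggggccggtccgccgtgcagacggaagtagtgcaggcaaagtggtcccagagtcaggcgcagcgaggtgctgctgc

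A p53 half-site was matched at bases -173 to -164 from the start in the second Sesn1 window, -90 to -81 in Ddit4l and -40 to -31 in Gadd45a, and at -231 to -222 in the first of the 2 Polk windows. Of all 32851 windows of that length, 8.36% held one. TGATGNAA was matched in that same Polk window only (3.97% of all windows). CCAAT was matched 3 times in Tigar, 2 times in Sesn2, and 1 time each in Gadd45a and in both Sesn1 windows (37.4% of all windows), and TATAAA in Ddit4l, 36 bases past the start (13.6% of all windows). The Foxo3 window held none of these and 35 CpG dinucleotides, against a median of 7 over all windows. A match is a string of letters, not a site shown to be bound, and these windows leave out the introns and distal regions where p53 sites often lie.

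Levels between genes were compared as deposited FPKM, which divides by gene length, over the 4 libraries labelled WT in each tissue. In embryos the nucleotide excision repair factor Xpc was first at 6.39 ± 0.306 FPKM (SD, n = 4), followed by Foxo3 at 6.16 ± 0.563, Tigar at 6 ± 0.254, Sesn2 at 5.3 ± 0.572 and Sesn1 at 4.89 ± 0.499. Gadd45a stood at 3.65 ± 0.675, Polk at 3.12 ± 0.106, Ddb2 at 1.9 ± 0.221, Rrm2b at 1.25 ± 0.0931 and Ddit4l at 1.04 ± 0.358. Neighbours in this order had overlapping ranges except Polk above Ddb2 and Ddb2 above Rrm2b. Yolk sacs began instead with Tigar at 10.3 ± 0.862 FPKM and Sesn2 at 9.87 ± 1.1, followed by Foxo3 at 6.82 ± 1.17 and Gadd45a at 6.59 ± 1.7. The Sesn2 range of 8.79 to 11.2 lay above that of Foxo3 and overlapped that of Gadd45a, which reached 9.01. Polk (4.62 ± 0.682), Sesn1 (4.49 ± 0.882) and Xpc (3.82 ± 0.545) overlapped as neighbours. Ddb2 at 2.21 ± 0.307, Rrm2b at 1.39 ± 0.108 and Ddit4l at 0.0839 ± 0.0446 each lay apart from the gene above.

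Set against each other in a fit of all 24 libraries, the libraries labelled WT of each tissue differed in 9 of the 10 genes, where 71.7% of all genes tested differed (edgeR). For yolk sac these include the null libraries whose Setd2 level goes against the label. With CD WT libraries alone 7 of the 10 differed, without Ddb2 and Foxo3. CD WT embryos were of the Y-linked type and CD WT yolk sacs of the Xist type, so that comparison holds sex as well as tissue. The share over all genes in that comparison is not given here, so its count cannot be set against 71.7%. Ddit4l entered this fit through embryos, where it is high, so its value and its place in these counts are a description. Sesn2 was 1.22 higher in yolk sac on the log2 scale (SE 0.13), Gadd45a 1.15 (SE 0.18) and Tigar 1.09 (SE 0.1). Polk (0.88), Ddb2 (0.53), Foxo3 (0.47) and Rrm2b (0.46) were also higher there. Lower in yolk sac were Ddit4l, by -3.27 (SE 0.34), and Xpc, by -0.43 (SE 0.098). Sesn1 did not pass (0.19, edgeR adjusted p = 0.183). The tables were deposited separately, so tissue and table cannot be told apart for levels. Through the CD WT libraries the comparison of both lines also holds sex in part.

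Homozygous null embryos were compared with their WT to see what loss of Setd2 does to these genes, and CD embryos to see what loss of its activity does. Of the 10, 5 rose in both lines: the stress sensor Sesn2, the mTORC1 inhibitor Ddit4l, the translesion polymerase Polk, the growth arrest gene Gadd45a and the transcription factor Foxo3. In the null line 16.2% of all genes tested rose and 16.5% fell, and in the CD line 6.93% rose and 9.14% fell. The median log2 change over the 10 genes was 0.59 in null and 0.29 in CD embryos, against 0.01 and 0.00 over all genes. As the 10 were chosen with earlier results of these data known, these counts and medians are a description. The share of all genes that rose in both lines is not given here. Xpc fell in the null line, and Sesn1, Ddb2, Rrm2b and Tigar passed in neither line.

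**Figure D1:**
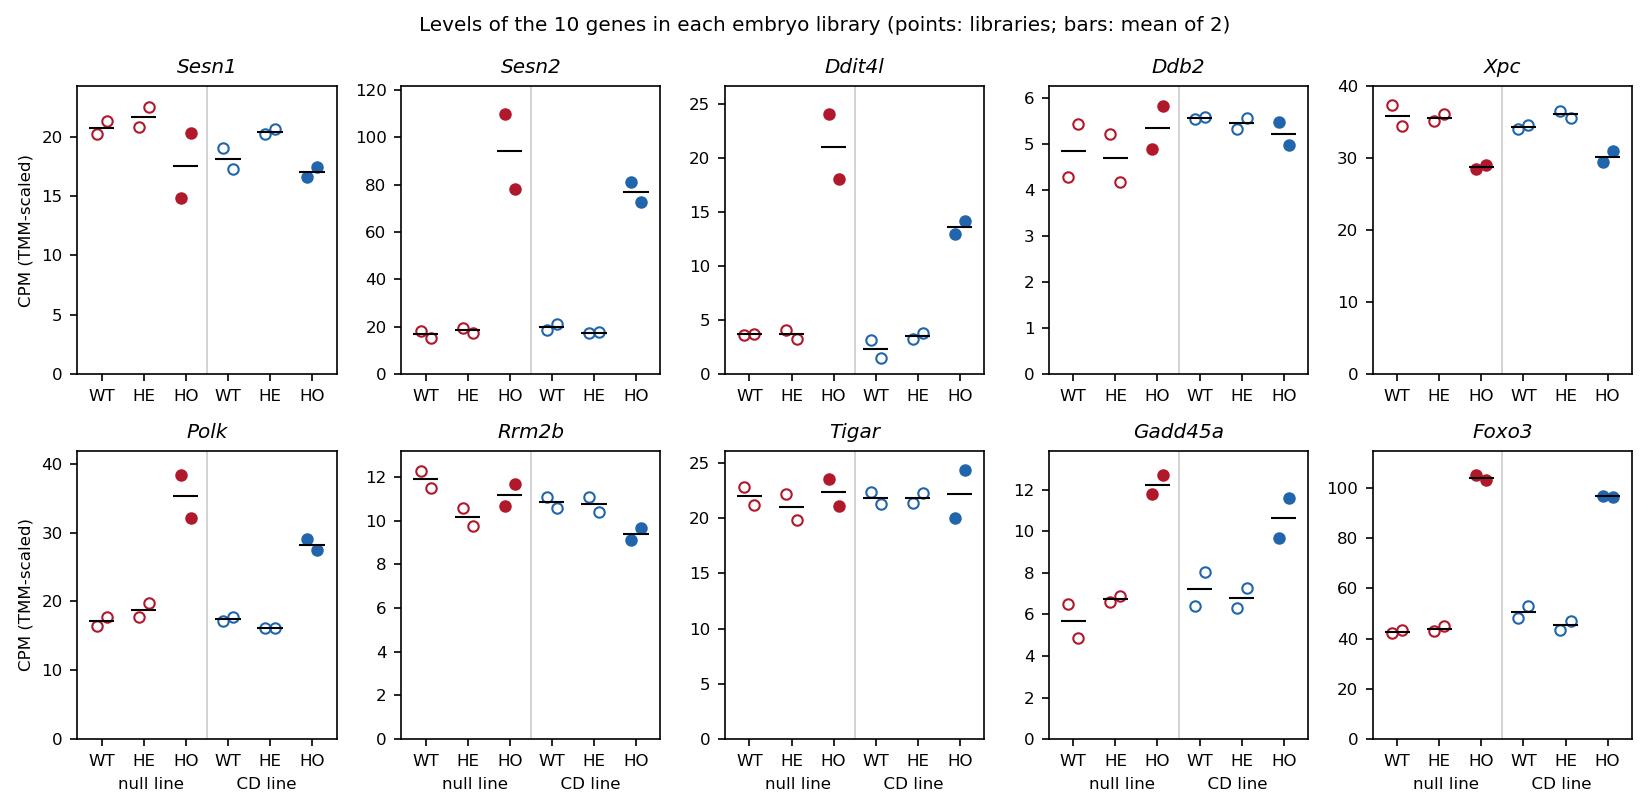
CPM of each of the 10 genes (vertical axes, each starting at 0) in every embryo library, by genotype, with the null line left and the CD line right of the grey divider. Each point is 1 library, filled for HO, and each bar the mean of 2. Both HO points lie above all WT and HE points of their line for Sesn2, Ddit4l, Polk, Gadd45a and Foxo3.

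Sesn1 and Sesn2 encode sestrins, which limit oxidative damage and hold back the growth kinase complex mTORC1 when amino acids are short. Sesn2 was at 18.4 and 15.5 CPM in null WT embryos, 19.7 and 17.6 in HE, and 110 and 78.2 in HO. CD embryos held 18.8 and 21 CPM in WT, 17.2 and 17.7 in HE, and 80.9 and 72.6 in HO. The HO libraries stood well apart from all others in both lines. The change was 2.48 (SE 0.15, edgeR adjusted p = 6.57e-07), a 5.57-fold rise, in the null line and 1.95 (SE 0.15, edgeR adjusted p = 7.11e-06) in the CD line. Its paralog Sesn1 was at 20.2 and 21.3 CPM in null WT and 14.8 and 20.3 in HO, which overlapped, and its change of -0.24 did not pass (SE 0.13, edgeR adjusted p = 0.179). Without null HO replicate 2 it was -0.50 and passed (edgeR adjusted p = 0.00666). In CD embryos Sesn1 changed by -0.09 (edgeR adjusted p = 0.679). The third sestrin, Sesn3, fell by 0.43 in the null line (edgeR adjusted p = 0.00441) and by 0.58 in the CD line (edgeR adjusted p = 0.00181).

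Ddit4l (also called Redd2) inhibits mTORC1 through the TSC complex, as its paralog Ddit4 (Redd1) does. Null WT embryos held it at 3.67 and 3.68 CPM, HE at 4.06 and 3.3, and HO at 24 and 18. In CD embryos it stood at 3.21 and 1.54 CPM in WT, 3.26 and 3.77 in HE, and 13 and 14.2 in HO. The groups were far apart in both lines, and the log2 change was 2.51 in each (SE 0.24 and 0.25, edgeR adjusted p = 1.82e-05 and 7.64e-05). As plain counts, 1052 against 192 in the null line gave a ratio of 5.74 (95% exact interval 4.92 to 6.74, for counting error only), and 672 against 117 in the CD line one of 5.68 (4.66 to 6.98). Ddit4 rose as well, by 1.50 in the null (SE 0.25, edgeR adjusted p = 9.27e-04) and 1.26 in the CD line (SE 0.25, edgeR adjusted p = 0.00616), from 25.6 and 29.5 CPM in null WT to 94.8 and 61 in HO. Of 21 listed genes of amino acid sensing by mTORC1, Ddit4 and Sesn3 included, 4 rose and 5 fell in null embryos (median 0.05) and 2 rose and 3 fell in CD embryos (median 0.00).

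Ddb2 and Xpc recognise DNA lesions for global nucleotide excision repair, Ddb2 as a partner of Ddb1. Ddb2 was at 4.28 and 5.43 CPM in null WT and 4.89 and 5.82 in HO, and at 5.53 and 5.58 in CD WT and 5.47 and 4.97 in CD HO. These ranges overlapped in the null line, and the changes of 0.14 (95% interval -0.24 to 0.52, edgeR adjusted p = 0.576) and -0.09 (edgeR adjusted p = 0.776) did not pass. Xpc moved the other way: 37.3 and 34.4 CPM in null WT, 35.1 and 36.1 in HE, and 28.5 and 29.1 in HO. It fell by 0.32 (SE 0.074, edgeR adjusted p = 0.00679), which did not pass without null WT replicate 1 (-0.25, edgeR adjusted p = 0.0719). In CD embryos Xpc went from 34.1 and 34.6 CPM in WT to 29.4 and 31 in HO, and its change of -0.18 did not pass (edgeR adjusted p = 0.114), although the HO libraries lay below every WT and HE library. Against CD HE it did pass (-0.25, edgeR adjusted p = 0.0283). Ddb1 rose by 0.15 in null embryos (edgeR adjusted p = 0.0205). Among 26 listed genes of the pathway, Ddb1 included, 4 rose and 7 fell in the null line (median -0.07), and 1 rose and 4 fell in the CD line (median -0.03). Gtf2h3, a subunit of the repair helicase complex TFIIH, fell by 0.56 and 0.38, while another subunit, Gtf2h1, rose by 0.42 and 0.25.

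Polk encodes DNA polymerase kappa, which copies past bulky lesions. Its null WT libraries held 16.5 and 17.8 CPM, HE 17.7 and 19.7, and HO 38.4 and 32.1, while CD embryos held 17.2 and 17.7 in WT, 16.2 and 16.2 in HE, and 29 and 27.5 in HO. There was no overlap, and Polk rose by 1.04 in the null line (SE 0.1, edgeR adjusted p = 2.88e-05), 2.06-fold, and by 0.69 in the CD line (SE 0.1, edgeR adjusted p = 0.00124). Of 8 other lesion bypass genes 3 rose and 2 fell in null embryos (median -0.11), and 2 rose and 1 fell in CD embryos (median 0.03). Poli, a polymerase of the same family, rose by 0.87 and 0.59, and Rev3l, the catalytic subunit of polymerase zeta, fell by 0.32 and 0.27.

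Rrm2b encodes the p53-inducible small subunit of ribonucleotide reductase, which supplies deoxynucleotides outside S phase. It was at 12.3 and 11.5 CPM in null WT and 10.7 and 11.7 in HO, and at 11.1 and 10.6 in CD WT and 9.14 and 9.68 in CD HO. The CD HO libraries were the lowest of their line, but neither change passed: -0.09 in the null line (95% interval -0.34 to 0.15, edgeR adjusted p = 0.56) and -0.21 in the CD line (edgeR adjusted p = 0.25). The replicative subunits Rrm1 and Rrm2 fell in null embryos by 0.28 and 0.23 (edgeR adjusted p = 0.00253 and 0.00295). All 9 nucleotide supply genes listed, these included, passed in the null line, 2 rising and 7 falling (median -0.28), and 4 fell in the CD line (median -0.15). Among them were the kinases Tk1 (-1.01 in null, -0.46 in CD) and Dtymk (-0.99 and -0.77).

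Tigar encodes a phosphatase that lowers fructose-2,6-bisphosphate and so turns glucose toward the pentose phosphate pathway. In embryos it did not separate by genotype: 22.8 and 21.2 CPM in null WT, 23.6 and 21.1 in null HO, 22.4 and 21.3 in CD WT and 20 and 24.4 in CD HO. The groups overlapped and the change was 0.02 in both lines (95% interval in null -0.22 to 0.27, edgeR adjusted p = 0.897 in null and 0.928 in CD). Of 11 pathway genes tested, 3 rose and 4 fell in null embryos (median 0.03), and 2 rose and 1 fell in CD embryos (median -0.12). G6pdx, which makes the first step of the pentose phosphate pathway, fell by 0.71 and 0.65.

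Gadd45a encodes a small protein that binds cell cycle and repair factors under stress. Its null embryo libraries held 6.52 and 4.86 CPM in WT, 6.61 and 6.87 in HE, and 11.8 and 12.7 in HO. In the CD line WT held 6.42 and 8.03, HE 6.32 and 7.25, and HO 9.68 and 11.6. Both lines were without overlap, with a rise of 1.10 in the null (SE 0.17, edgeR adjusted p = 4.80e-04) and 0.56 in the CD line (SE 0.17, edgeR adjusted p = 0.0408). The CD call was lost with a term for sex (0.59, edgeR adjusted p = 0.177) and without CD WT replicate 1 (0.40, 0.212), CD HO replicate 1 (0.68, 0.0638) or CD HO replicate 2 (0.41, 0.254). Its paralogs Gadd45b (0.23 in null, 0.03 in CD) and Gadd45g (0.10 and 0.25) did not pass.

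Foxo3 encodes a forkhead factor of stress resistance that growth factor signalling keeps out of the nucleus. It was at 42 and 43.4 CPM in null WT, 43.1 and 44.8 in HE, and 105 and 103 in HO, and at 48.2 and 52.9 in CD WT, 43.5 and 47 in HE, and 96.8 and 96.3 in HO. The replicates were close together and the HO groups lay far above. The rise was 1.28 (SE 0.065, edgeR adjusted p = 1.39e-07), or 2.43-fold, in the null line and 0.93 (SE 0.064, edgeR adjusted p = 3.07e-06) in the CD line. Among its paralogs Foxo1 did not pass (0.05 and -0.05), and Foxo4 rose by 0.46 and 0.26.

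**Figure D2:**
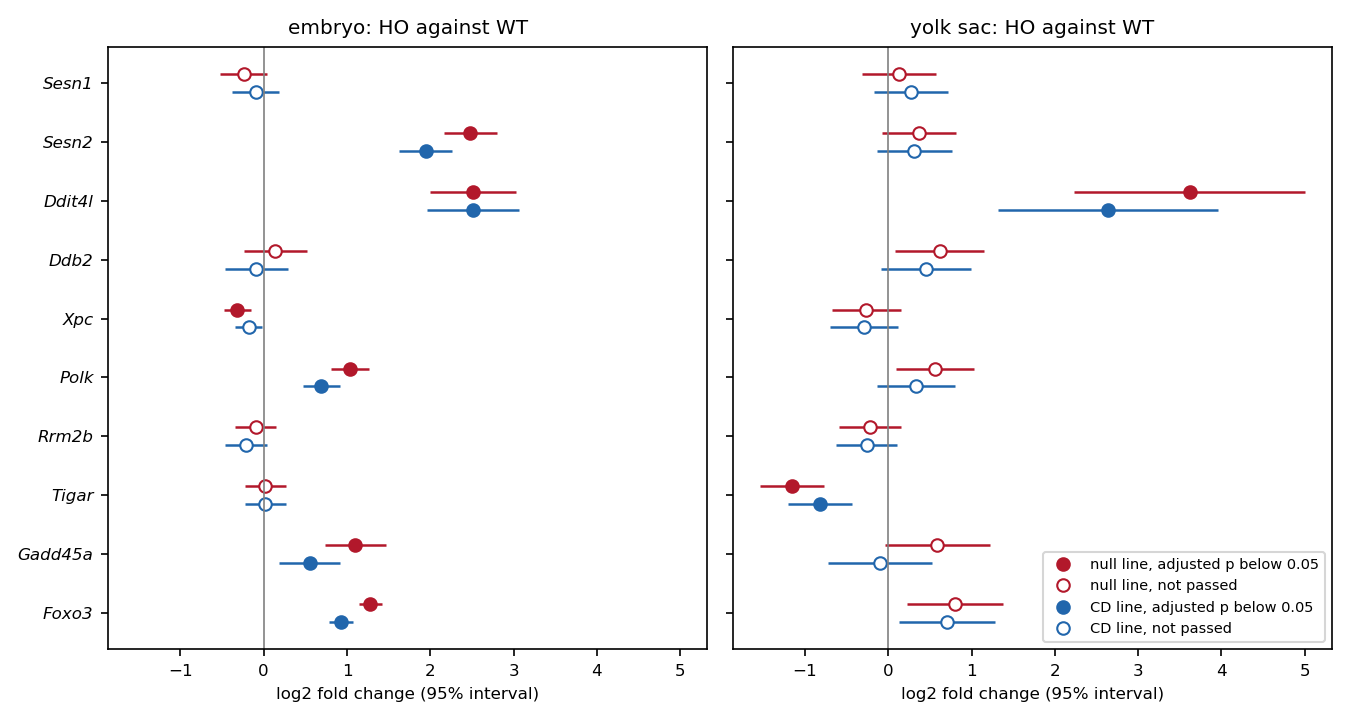
Log2 fold change of HO against WT (horizontal axis) with its 95% interval for each gene, in embryos (left) and yolk sacs (right), null line in red and CD line in blue; filled points passed the test. Sesn2 and Foxo3 stand clear of 0 in embryos, and Tigar lies at 0.02 there but at -1.16 and -0.82 in yolk sacs.

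Regulators of p53 and its other targets were read in the same embryos. Trp53, the gene for p53, rose by 0.29 in the null line (edgeR adjusted p = 0.0127) and did not pass in the CD line (0.18, edgeR adjusted p = 0.126). Mdm2, itself a p53 target, rose by 0.78 and 0.32 (edgeR adjusted p = 1.96e-05 and 0.0143), and the cell cycle inhibitor Cdkn1a by 3.03 and 2.39 (edgeR adjusted p = 3.91e-06 and 4.46e-05). Of 12 listed p53 regulators and arrest genes 8 rose and 1 fell in null embryos (median 0.57), and 6 rose in CD embryos (median 0.26). Of 12 p53 cell death genes 10 rose in each line (medians 0.80 and 0.98). Among them were Eda2r (2.90 and 2.22) and the death receptor Tnfrsf10b (2.11 and 1.35). The ATF4 list, whose factor also drives Sesn2, had 6 of 13 genes rising and 1 falling in the null line (median 0.31), and 6 rising in the CD line (median 0.35), with the glutathione-degrading enzyme Chac1 at 4.39 and 4.16 and asparagine synthetase, Asns, at 0.82 and 0.72. These lists were drawn up with earlier results of the data known, so their directions are not independent evidence.

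Marker levels of the embryo proper and of other cell types differed between genotype groups in the embryo libraries, in places through 1 library of a pair. Of 8 embryo proper markers, Tnnt2 (0.77) and Myl7 (0.40) rose and Meox1 (-2.68) and Pax6 (-1.11) fell in null HO. In CD HO Meox1 (-1.66) and Pax6 (-0.47) fell and none rose. Of 5 endothelial markers, Emcn fell (-1.30 in null HO, -0.71 in CD HO), and Kdr rose in null HO (0.53). All 7 tested visceral endoderm markers of 8 listed fell in CD HO, where they summed to 10.8 to 15.6 CPM against 94 to 751 in CD WT; in the null line none passed (36.9 to 45.3 CPM in WT, 20.8 to 77.7 in HO). Primitive erythroid markers summed to 91.1 to 1280 CPM in null HO against 1970 to 2910 in WT, with 2 of 6 falling, and to 587 to 1540 in CD HO against 1120 to 2190 in CD WT, with none passing. In null HO, both of the 2 trophoblast markers tested rose, with 1 of the 6 listed at 0 in every embryo library. Summed over the 6, null HO libraries held 0.077 and 17.3 CPM against 0.0386 to 0.228 in WT. That rise therefore rests on 1 library. Of 4 parietal endoderm markers, 2 rose in null HO, Lama1 and Sparc (both 0.39). The other 2, Srgn (-2.07) and Thbd (-0.42), went the other way without passing, and the median was -0.01. The 4 summed to 394 to 398 CPM in null HO against 302 to 309 in WT. In CD HO they summed to 385 to 405 CPM against 302 to 341 in CD WT, with Lama1 alone passing (0.29). With a term for sex, which differed between CD WT and CD HO, Sesn2, Ddit4l, Polk and Foxo3 still rose in CD embryos. That term could be estimated only from the null HO and CD HE pairs, which held 1 library of each sex. It is therefore a weak check on the CD contrast. The part of these shifts in the changes of the 10 genes was not tested, and in whole tissue fewer cells of a type and less RNA per cell cannot be told apart.

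Heterozygous embryos and yolk sacs were set against WT to see whether 1 mutant copy moves the group. None of the 10 genes passed in any of the 4 comparisons by edgeR or by DESeq2. Null WT and null HE embryos were of opposite sexes, so that comparison holds sex as well as genotype. Over all genes tested, edgeR called 0.0104% in null embryos, 0.0156% in CD embryos, 0% in null yolk sacs and 0% in CD yolk sacs. An unadjusted p under 0.05 was reached by 0 of the 10 in null embryos, 1 in CD embryos (Foxo3, -0.16), 1 in null yolk sacs (Ddit4l, 1.66) and 0 in CD yolk sacs. Over all genes it was reached by 464 and 1692 of 19215 in null and CD embryos and by 360 and 665 of 17755 in null and CD yolk sacs, where DESeq2 called 2 and 7. The 95% intervals for Sesn2 in HE ran from -0.19 to 0.47 in null and -0.52 to 0.14 in CD embryos. CD WT replicate 1 held Ddit4l at 3.21 CPM against 1.54 in replicate 2. Without replicate 1 the CD WT group is 1 library, and far more of all genes were then called in CD HE embryos. That Ddit4l passed in that fit is therefore not particular to it.

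Whether the null and CD alleles differed in effect was tested as the HO change of the CD line minus that of the null line. In embryos none of the 10 passed by edgeR or DESeq2, where edgeR called 0.0208% of all genes, while 4 of the 10 and 2579 of the 19215 genes tested had an unadjusted p under 0.05. Those 4 are given by value. For Foxo3 the difference was -0.35 (SE 0.09, 95% interval -0.54 to -0.15, unadjusted p = 0.00221, edgeR adjusted p = 0.173). Sesn2 differed by -0.53 (95% interval -0.98 to -0.09), Polk by -0.35 (-0.67 to -0.03) and Gadd45a by -0.55 (-1.06 to -0.03), with edgeR adjusted p = 0.3, 0.338 and 0.349. Ddit4l differed by 0.00, with a wide interval of -1.54 to 1.53. Foxo3 passed without CD WT replicate 1, a fit that called 1047 genes in place of 4, and Sesn2 passed with no filter on low counts. In yolk sacs edgeR called 0.0282% of all genes and none of the 10, none of which had an unadjusted p under 0.05, and DESeq2 called none.

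In yolk sacs Tigar fell in both lines, against the libraries labelled WT in the null line and against CD WT. Over all genes tested, 3.97% fell and 2.3% rose in the null line, and 1.89% fell and 1.27% rose in the CD line. Ddit4l was called higher in both, but as it entered the fit through the HO libraries, that call supports nothing. None of the other 8 genes passed. The spread between libraries was wider than in embryos (common biological coefficient of variation 0.165 against 0.087).

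**Figure D3:**
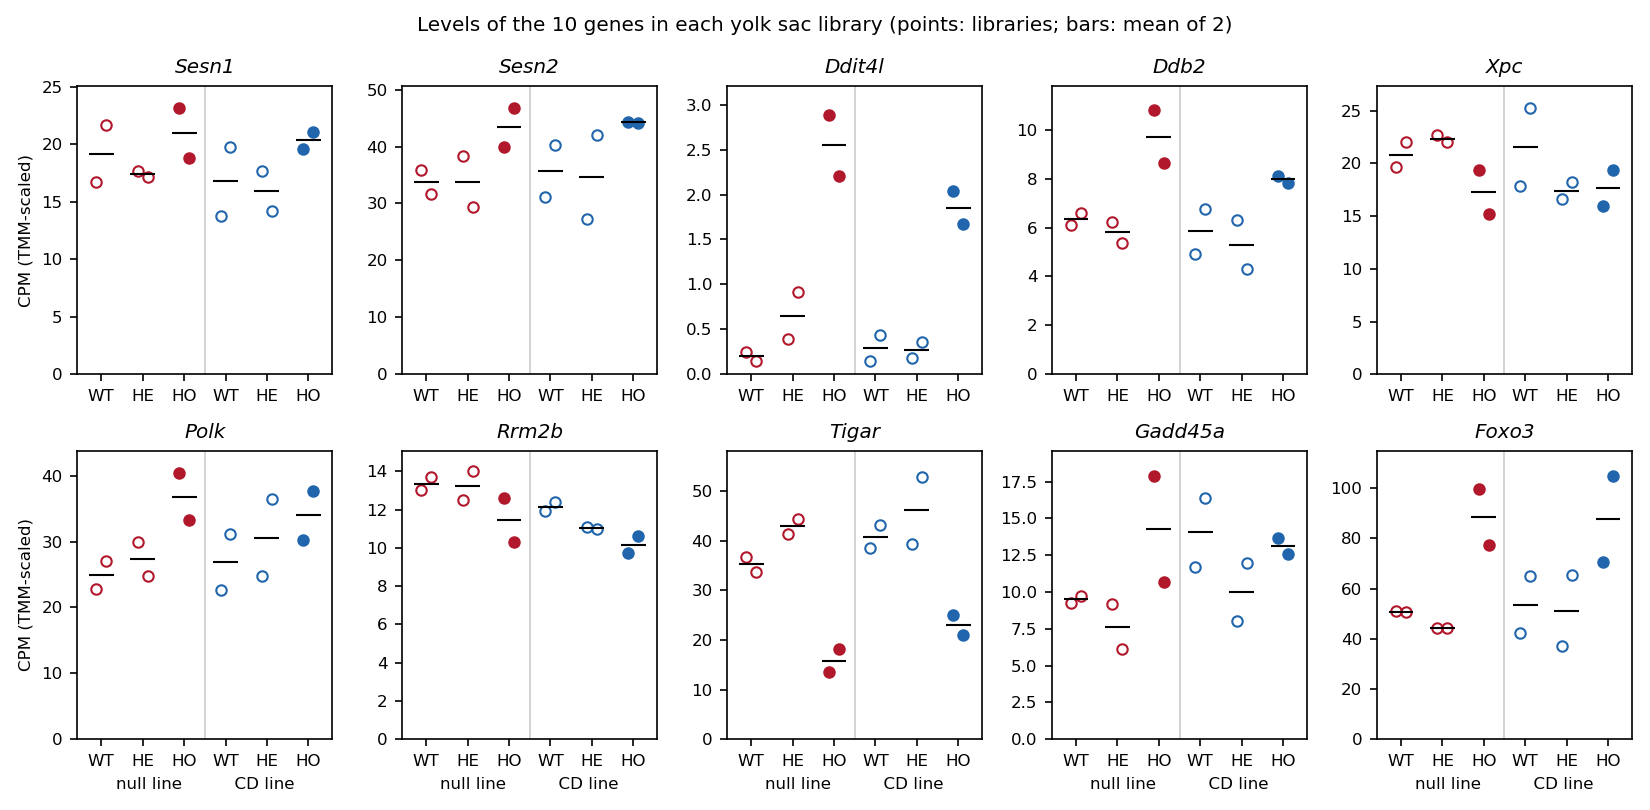
CPM of the 10 genes (vertical axes, each starting at 0) in every yolk sac library, laid out as for embryos with each point 1 library and each bar the mean of 2. Tigar is lowest and Ddit4l highest in the HO libraries of both lines; the null groups marked WT are so by label only.

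Tigar was at 36.7 and 33.8 CPM in the null yolk sacs labelled WT, 41.3 and 44.5 in HE, and 13.5 and 18.1 in HO. In the CD line it was at 38.5 and 43.1 in WT, 39.4 and 52.9 in HE, and 25 and 21 in HO. The HO libraries lay below every other library, and Tigar fell by 1.16 in the null line (SE 0.18, edgeR adjusted p = 0.00419) and 0.82 in the CD line (SE 0.18, edgeR adjusted p = 0.0297). The null call was lost without null HO replicate 1 (-0.96, edgeR adjusted p = 0.0605). The CD call was lost with a term for sex (-0.78, edgeR adjusted p = 0.186) and without CD WT replicate 1 (-0.90, 0.0808), CD WT replicate 2 (-0.75, 0.111) or CD HO replicate 2 (-0.70, 0.186).

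Ddit4l was scarce in yolk sacs, at 3 to 9 counts in each library labelled WT. It stood at 0.252 and 0.153 CPM in the null libraries labelled WT, 0.392 and 0.911 in HE, and 2.89 and 2.21 in HO, and at 0.149 and 0.438 in CD WT, 0.18 and 0.359 in HE, and 2.04 and 1.67 in HO. Every HO library lay above the rest. The fitted log2 change was 3.62 (SE 0.64) in the null and 2.64 (SE 0.61) in the CD line, in a test that the filter reached through HO alone. At a minimum count of 50 the gene was not tested. Counts of 103 against 8 gave a ratio of 12.7 (95% exact interval 6.22 to 30.3, for counting error only), and 72 against 12 one of 6.37 (3.43 to 12.9). As the same HO counts brought the gene into the fit, these ratios are a description and add no support. Leaving out 1 CD WT or CD HO library at a time gave a fitted change of 2.07 to 3.58 in the CD line, none of them called.

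Sesn2, which had risen most in embryos beside Ddit4l, was at 35.8 and 31.6 CPM in the null yolk sacs labelled WT and 40 and 46.8 in HO, and at 31.1 and 40.3 in CD WT and 44.4 and 44.2 in CD HO. Within each line the HO libraries lay above the others by a small margin. Its changes of 0.37 (95% interval -0.08 to 0.81, edgeR adjusted p = 0.328) and 0.31 (-0.13 to 0.76, edgeR adjusted p = 0.425) did not pass. Foxo3 was at 51 and 50.6 CPM in those labelled WT and 99.5 and 77.3 in null HO, and at 42.1 and 65.1 in CD WT and 70.4 and 105 in CD HO, without overlap in either line. Its changes of 0.80 (SE 0.27, edgeR adjusted p = 0.0994) and 0.71 (edgeR adjusted p = 0.163) did not pass. In the null line Foxo3 passed against HE (edgeR adjusted p = 0.0401), by DESeq2 (0.79, adjusted p = 0.0185) and, without CD HE replicate 2 (0.80, edgeR adjusted p = 0.0492).

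The remaining genes did not pass in yolk sacs in either line. Ddb2 went from 6.1 and 6.61 CPM in those labelled WT to 10.8 and 8.63 in null HO (0.62, edgeR adjusted p = 0.167) and from 4.93 and 6.76 to 8.13 and 7.83 in the CD line (0.45, edgeR adjusted p = 0.342), without overlap. Polk changed by 0.56 and 0.33, Gadd45a by 0.59 and -0.10, Sesn1 by 0.13 and 0.27, Xpc by -0.27 and -0.29 and Rrm2b by -0.22 and -0.26. Gadd45a in CD HO (13.7 and 12.6 CPM) lay within the CD WT range of 11.7 to 16.4. Beside Rrm2b, the replicative subunit Rrm2 rose in both lines (0.61 and 0.68, edgeR adjusted p = 0.00317 and 0.0036).

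Among other p53 targets, Cdkn1a rose by 1.31 in the null yolk sacs (edgeR adjusted p = 0.00735) and did not pass in the CD line (0.78, edgeR adjusted p = 0.0794), and Mdm2 likewise (0.65, edgeR adjusted p = 0.0186, and 0.47, edgeR adjusted p = 0.085). Of 12 p53 regulators and arrest genes 4, and of 12 cell death genes 1, rose in the null line and none in the CD line, with medians of 0.70 and 0.56, and 0.47 and 0.58. No ATF4 list gene of 13 passed in either line (medians -0.12 and -0.08). Visceral endoderm markers summed to 28700 to 31800 CPM in null HO against 38900 to 41600 in those labelled WT, with 4 of 8 falling, and to 26500 to 35100 in CD HO against 37800 to 40900 in CD WT, with 3 of 8 falling. Trophoblast markers reached 73.7 CPM in 1 CD HO library against 3.7 to 6.62 in CD WT, with none passing, and 2 of 4 parietal endoderm markers rose in null HO. Their part in the changes of Tigar and Ddit4l was not tested.

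A direct test of the HO change in yolk sac minus that in embryo passed for Sesn2 and Tigar in both lines and for none of the other 8 genes. In the null line 10.1% of all genes differed and in the CD line 2.94%. The Sesn2 change was smaller in yolk sac by -2.15 (SE 0.26, edgeR adjusted p = 8.89e-05) in the null and -1.64 (SE 0.26, edgeR adjusted p = 0.0024) in the CD line. For Tigar the difference was -1.22 (SE 0.21, edgeR adjusted p = 0.00152) and -0.85 (SE 0.21, edgeR adjusted p = 0.0363), the latter lost with a term for sex. The sexes of CD WT and CD HO were reversed between tissues, so the CD contrast holds sex as well as genotype. With the term for sex its calls over all genes went from 604 to 85. Ddit4l did not differ detectably (1.08, 95% interval -0.26 to 2.43, in null; 0.12, -1.03 to 1.28, in CD), nor did Foxo3 (-0.52, -1.13 to 0.10, and -0.23, -0.85 to 0.38). The null contrast rests on yolk sac libraries whose WT label the Setd2 level goes against.

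**Figure D4:**
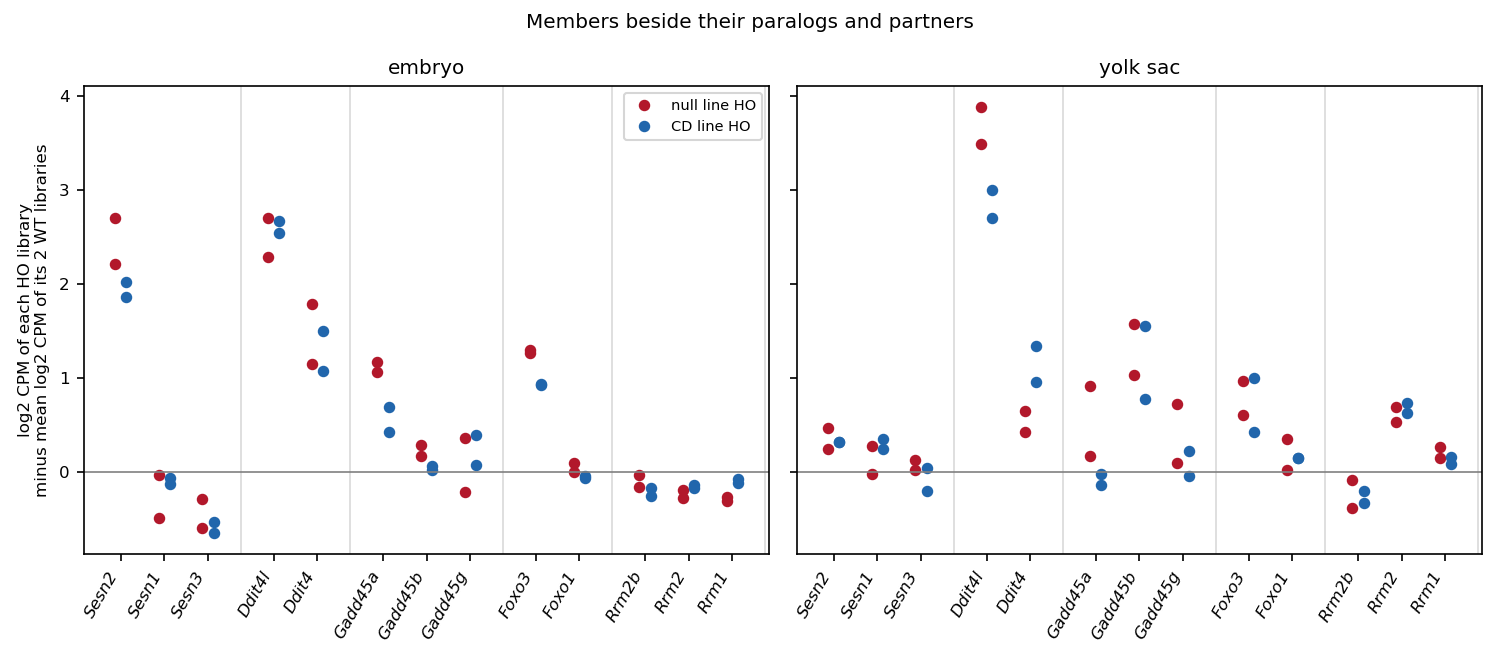
Each HO library's log2 CPM minus the mean log2 CPM of the 2 libraries labelled WT of its line (vertical axis), for members beside paralogs and partners, in embryos (left) and yolk sacs (right); each point is 1 library. In embryos Sesn2 lies far above Sesn1 and Sesn3, and Foxo3 above Foxo1, while Ddit4l and Ddit4 lie above 0 together.

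The levels also varied together across libraries. Over the 12 embryo libraries, which share genotype groups, log2 CPM of Sesn2 correlated with that of Foxo3 at r = 0.99, Polk with Sesn2 at 0.97, Ddit4l with Sesn2 at 0.94 and Gadd45a with Foxo3 at 0.93, and Xpc ran opposite to Foxo3 at -0.96. Ddb2, Rrm2b and Tigar had no partner in the group above 0.34. In the 12 yolk sac libraries the closest pairs were Ddb2 with Sesn1 and Polk with Foxo3, both at 0.86, and Tigar ran opposite to Ddb2 at -0.91. Outside the group, the genes whose profile was most like the mean profile of the 10 were Mfsd11 (0.96), Arpc5, Bcor (both 0.95), Nfkb1 and Hspb11 (both 0.94) in embryos, and Btrc (0.95), Caprin2 (0.94), Ogfrl1 (0.93), Tapt1 and Kif11 (both 0.92) in yolk sacs. These correlations are descriptions over 12 libraries in which the homozygotes form a cluster.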

How the data were processed

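mRNA libraries of 12 embryo and 12 yolk sac samples were analysed from 2 tables, 1 per tissue. Per the submitters' processing notes, fastp 0.22.0, HISAT2 2.2.1, featureCounts 2.0.1, DESeq2 1.32.0 and the mm10 build were used; their order, the annotation release and the strand setting are not stated in these sources. The authors deposited raw read counts per gene, with FPKM in further columns. These deposited FPKM values followed from count, length and library total (0 values off by more than 0.001 of the value), and served only to compare levels between genes. Positions are from GENCODE M21, and promoter windows from RefSeq.

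The deposited counts were fitted per tissue (12 libraries, 6 groups, 6 residual degrees of freedom), and jointly for tissue differences (24 libraries, 12 residual degrees of freedom), with edgeR 4.0.16 under R 4.3.3: filterByExpr (minimum count 10, minimum total 15), TMM factors, quasi-likelihood F-tests and a 0.05 threshold on Benjamini-Hochberg values. This left 19215 genes in embryos, 17755 in yolk sacs and 20543 jointly. Groups came from the labels. The script was tested on simulated data. All 10 members are named in each main comparison; from each list, up to 3 genes of smallest p, and partners and paralogs, could be named. The members and lists were chosen with earlier results of these data known. Replicates differed beyond sampling noise (chi-square per degree of freedom 2.95 to 32.3), so none was counted as a repeat. Alternatives were DESeq2 1.42.0, other scaling, other filters, a replicate block, a term for sex, heterozygotes as controls and leaving out each library; leaving out yolk sac CD HE replicate 2 from the other yolk sac comparisons, and comparing tissues over CD WT alone, were added after seeing the data.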

Additional observations from a re-analysis of the deposited data

Results flagged for a closer look

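The following 4 results differed between tissues under the same contrast, by a test of the difference in the joint edgeR fit. The homozygous change of Sesn2 was smaller in yolk sac than in embryo by -2.15 in the null line (edgeR adjusted p = 8.89e-05) and by -1.64 in the CD line (edgeR adjusted p = 0.0024). All 4 embryo HO libraries held more Sesn2 than any other embryo library, at 72.6 to 110 CPM. That of Tigar was lower by -1.22 in the null line (edgeR adjusted p = 0.00152) and -0.85 in the CD line (edgeR adjusted p = 0.0363). In the CD line both differences hold sex as well as genotype, since the sexes of WT and HO were reversed between tissues. All 4 yolk sac HO libraries held less Tigar than any other yolk sac library, at 13.5 to 25 CPM.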

How the results depend on the processing

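Of the single-gene changes of HO against WT over the alternatives, 471 kept their side of the threshold, 9 newly passed, 18 were lost and no called change reversed in sign. Leaving out yolk sac CD HE replicate 2, or using CD WT libraries alone between tissues (7 in place of 9), was chosen after seeing the data. The count of the 10 genes called in CD yolk sacs, Ddit4l included, went from 2 to 1 at a minimum count of 50, which left Ddit4l untested, and to 0 with the term for sex; in the null yolk sacs it went from 2 to 4 with no filter (adding Polk and Foxo3) and to 1 at the minimum count of 50. For the CD change between tissues it went from 2 to 1 with library totals alone and with the term for sex, Sesn2 remaining. For CD against null in embryos it went from 0 to 1 with no filter. Leaving out 1 library at a time gave 5 to 7 called in null embryos, 4 to 5 in CD embryos, 0 to 3 in null and 0 to 2 in CD yolk sacs, 0 to 1 for CD HE embryos and for CD against null in embryos (both 1 without CD WT replicate 1), 8 to 10 between WT tissues, 2 to 2 for the null and 1 to 2 for the CD change between tissues, and 0 elsewhere.

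Counts over all genes moved more. In CD embryos 3088 genes were called, 1112 with the term for sex and 4252 against HE; in null embryos 6288, and 3696 without null WT replicate 2. In yolk sacs the null count of 1113 ranged from 157 (without replicate 2 of those labelled WT) to 2055 (no filter), and the CD count of 560 from 55 (without CD HO replicate 2) to 1662 (no filter). Between tissues the null count of 2078 ranged from 1020 to 2755 and the CD count of 604 from 85 to 1447.

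Replicate numbers gave no sign of pairing within a tissue and line: deviations of same-numbered libraries from their group means correlated at -0.04 to 0.10. These values do not cover pairing between tissues, nor do they show whether libraries shared a litter. A replicate block changed no count of the 10, with 6 called in null and 5 in CD embryos, 2 in each yolk sac comparison, 9 between WT tissues and 2 for each change between tissues. With 2 libraries per group and 3 to 9 counts of Ddit4l in yolk sac libraries labelled WT, depth limits that gene most.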
